A study of Mus musculus with 3 samples.

Results

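The unfolded protein and ATF4 stress response was described here through 36 genes, of 18193 genes with a probe set of their own on the array. The genes were taken from a list of symbols for the pathway. For each gene, every probe set whose platform annotation gives exactly that 1 symbol was read, and the brightest over the 3 arrays represented the gene. All 36 genes were measured, and all 36 passed the filter on dim probe sets that left 11089 genes for testing. None of their representative signals lay in the background on any array.

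The endoplasmic reticulum (ER) folds the proteins that a cell secretes or places in its membranes, and epidermal keratinocytes secrete many as they build the skin barrier. When unfolded proteins accumulate there, the sensors Ern1 (IRE1), Eif2ak3 (PERK) and Atf6 act through the transcription factors XBP1, ATF4 and the cleaved form of ATF6, which raise ER chaperones, folding enzymes and the genes of ER-associated degradation. ATF4 is also made when amino acids run short, and its targets include genes of amino acid synthesis, amino acid transport and tRNA charging. Splicing of Xbp1, translation of Atf4 and cleavage of ATF6 are steps that a transcript level does not show.

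The arrays compared primary epidermal keratinocytes from neonatal RASSF9-/- mice (2 arrays, called RASSF9-/- arrays 1 and 2) with those of a WT newborn (1 array), all of ICR strain and grown in low-calcium serum-free keratinocyte medium. The RASSF9-/- mice come from 1 line in which insertion of an Epstein-Barr virus LMP1 transgene, driven by its own upstream promoter, removed a stretch of chromosome and with it Rassf9 expression, and they are homozygous for that insertion. The methods give 1 confluent plate per sample and 48 h of culture for each, whereas the deposited growth protocols give 48 h for RASSF9-/- and 24 h for WT, in which case time and genotype cannot be told apart. The names of the deposited array images carry a tag, apparently a date, that RASSF9-/- array 1 shares with WT and RASSF9-/- array 2 does not, so this tag cannot be told apart from the difference between the RASSF9-/- arrays.

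Rassf9 itself had a signal of 59.6 on RASSF9-/- array 1 and 120 on RASSF9-/- array 2, against 478 for WT. Where background values count as the highest bacterial control, the log-scale mean of the RASSF9-/- arrays was at least 4.93-fold lower than WT. Array 2 alone was 3.98-fold lower. The other probe set of Rassf9 had 68.2 and 76.7, against 340 for WT, which is at least 4.34-fold lower by the same measure of the mean. Defining keratinocyte markers were bright on every array, with 10 genes summing to 130947 and 164148 for RASSF9-/- arrays 1 and 2 and to 171760 for WT. Of these 10, 6 were lower than WT on both RASSF9-/- arrays, against 32.7% of all genes tested. The others were 1 higher on both and 3 with the arrays on opposite sides of WT. Trp63 had 1460 and 1543, against 3239 for WT, and Col17a1 had 3812.5 and 10303, against 9366 for WT. Melanocyte markers were also measured on all arrays, with 7 genes summing to 24488 and 34244 for RASSF9-/- and 28558 for WT, so the cultures were not keratinocytes alone. The 8 fibroblast markers summed to 1454 and 1106 for RASSF9-/- and 2089.7 for WT. The 8 leukocyte markers summed to 1465.5 and 1924 for RASSF9-/- and 1031 for WT, mostly from Csf1r (792 and 1686 for RASSF9-/-, 784 for WT). Ptprc, Cd207 and Itgam lay in the background on all 3 arrays, and Cd74, Cd3e, Fcer1g and Tyrobp lay above it on RASSF9-/- array 1 alone. The 5 endothelial markers summed to 355 and 335 for RASSF9-/- and 262 for WT, with Kdr above the background on all arrays, Tek and Emcn on RASSF9-/- array 1 alone, and Pecam1 and Cdh5 on none. The 5 adipocyte and muscle markers summed to 2726 and 3619 for RASSF9-/- and 1055 for WT, mostly from Acta1 (2484 and 3424 for RASSF9-/-, 931 for WT). Adipoq and Myh3 lay in the background. Of 15 mitosis and proliferation genes tested, 14 had a higher signal on both RASSF9-/- arrays, against 33.6% of all genes tested. However, 10 of the 15 had a WT signal in the background, so some passed the filter only through the RASSF9-/- arrays. With background values raised to the highest bacterial control, their median log2 ratio to WT was at least 1.05 on array 1 and at least 1.92 on array 2. In such bulk samples fewer cells of a type and less RNA per cell cannot be told apart, and the part of these differences in the results was not tested. The signal ratio of 3' to 5' control probe sets was 0.939 and 0.832 for RASSF9-/- and 0.841 for WT for Gapdh, and 1.41 and 1.365 for RASSF9-/- and 1.43 for WT for beta-actin.

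Several of these genes carry short elements that are known to bind the factors of this response, and the stretches that hold them are shown because the groups described below follow the same division into ER and ATF4 genes. RefSeq promoter windows (build GRCm38.p6, 250 bases before to 50 after a transcription start) were held for 32 of the 36 genes. The ER stress element was searched as CCAAT, then 9 bases of any kind, then CCACG, on both strands. It lay in the windows of 8 of the 32 genes (25%), namely Hspa5, Hsp90b1, Dnajc3, Creld2, Calr, Canx, Pdia6 and Syvn1, and in 0.119% of all 32851 windows of the same length. The shorter ER stress element II, ATTGG, then 1 base, then CCACG, lay in those of Herpud1 and Dnajb11 and in 0.0365% of all windows. The core of the unfolded protein response element, TGACGTGG, whose other strand starts with the same CCACG, was found in 0 of the 32 genes and in 0.676% of all windows. A match is a description of letters and not a bound site. The genes come from a list for the response to which these elements belong, so a higher share among them is not a result of these data. The shares of genes and of windows were not tested against each other. In the sequences below, read 5' to 3' on the strand of the gene, capitals mark the fixed letters of the element, which for Calr and Creld2 reads on the other strand.
Hspa5 (chr2:34772010-34772058, strand +): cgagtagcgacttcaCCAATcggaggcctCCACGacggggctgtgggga
Hsp90b1 (chr10:86705623-86705671, strand -): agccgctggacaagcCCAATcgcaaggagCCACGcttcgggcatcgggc
Pdia6 (chr12:17266476-17266524, strand +): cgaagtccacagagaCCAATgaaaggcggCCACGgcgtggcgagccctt
Creld2 (chr15:88819505-88819553, strand +): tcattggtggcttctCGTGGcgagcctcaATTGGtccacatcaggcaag
Calr (chr8:84847060-84847108, strand -): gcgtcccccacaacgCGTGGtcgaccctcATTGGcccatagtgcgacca
Syvn1 (chr19:6046517-6046565, strand +): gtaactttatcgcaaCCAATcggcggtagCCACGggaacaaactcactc
Herpud1, ER stress element II (chr8:94386362-94386402, strand +): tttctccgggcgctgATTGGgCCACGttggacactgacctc

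The core of the ATF4 or amino acid response element was searched as TGATGNAA on both strands. It was present in 6 of the 32 genes (18.8%), namely Trib3, Chac1, Asns, Aars, Gars and Herpud1, and in 3.97% of all windows, so a match to this short core is less rare. Herpud1, whose product takes part in ER-associated degradation, held this core as well as the ER stress element II, and the cores shown overlap neither of the ER stress elements. Capitals again mark the fixed letters, which read on the other strand in all but Asns. The core of Trib3 lies past the start of its transcript and is not shown.
Chac1 (chr2:119351034-119351071, strand +): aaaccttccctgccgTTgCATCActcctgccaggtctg
Gars (chr6:55037956-55037993, strand +): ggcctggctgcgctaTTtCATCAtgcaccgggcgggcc
Asns (chr6:7693210-7693247, strand -): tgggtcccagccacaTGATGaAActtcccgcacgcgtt
Herpud1, ATF4 element core (chr8:94386302-94386339, strand +): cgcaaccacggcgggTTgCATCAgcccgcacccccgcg

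**Figure D1:**
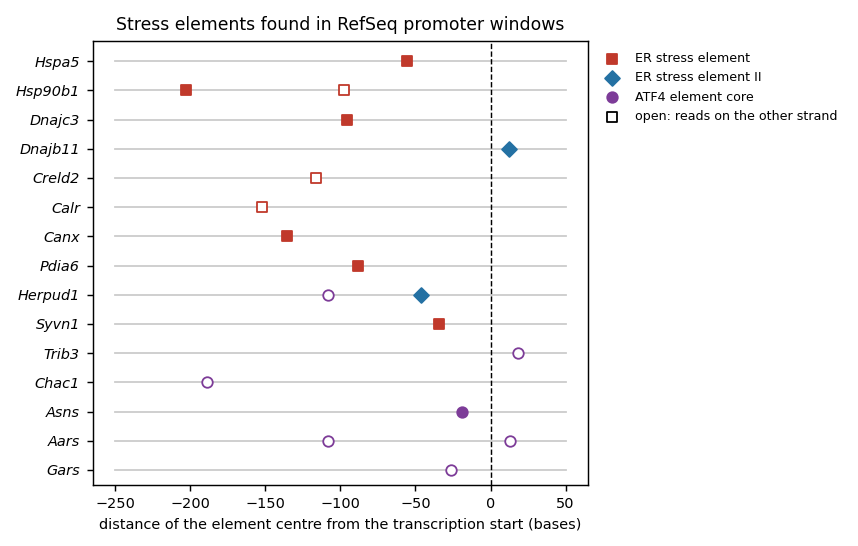
Distance (bases) of each element found from the transcription start (0, dashed), in the windows of the 15 genes that hold any, from 250 bases before to 50 after the start. Filled markers read on the strand of the gene and open ones on the other strand, and the ER stress element of Hspa5 lies nearer the start than that of Hsp90b1 shown above.

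Most of the genes had a higher signal in RASSF9-/- keratinocytes than in WT, but largely on 1 of the 2 RASSF9-/- arrays. Of the 36 genes, 33 were higher than WT on RASSF9-/- array 1, against 53.8% of all genes tested, and 19 on RASSF9-/- array 2, against 47% of all genes. Phgdh, Psat1 and Shmt2, enzymes of serine and glycine synthesis, were the 3 genes at least 1.5-fold higher on both arrays, a share of 8.33% that lies near the 7.08% of all genes. ER chaperones and folding enzymes such as Hspa5, Manf, Pdia4 and Creld2 were more than 2-fold higher on array 1 and at most 1.35-fold higher on array 2. The stress genes Ddit3, Trib3 and Chac1 and the degradation gene Herpud1 lay on opposite sides of WT, and Xbp1 and Eif2ak3 were lower than WT on both arrays.

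No gene of the response passed the test across all genes (adjusted p under 0.05, limma), either way, and the smallest adjusted p was 0.451, for Phgdh, while 32 of the 36 were at 0.9996. Over all genes tested, 0.0812% were called higher and 0% lower, so a count of 0 among 36 lies near the background. At an unadjusted p under 0.05, 2 of the 36 were higher in RASSF9-/- (Phgdh and Shmt2), against 3.11% of all genes, and none was lower, against 2.43% of all genes. The fit has 1 residual degree of freedom, the only measured spread is that between the RASSF9-/- arrays, and an exact two-sided permutation of 1 array against 2 could not give a p under 0.333.

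The median log2 fold change of the 36 genes was 0.36. Taken singly against WT, RASSF9-/- array 1 had a median of 0.61 and array 2 one of 0.04. Over all genes tested the median was -0.01 (0.05 on array 1 and -0.04 on array 2). Signals were higher than WT on both RASSF9-/- arrays for 19 of the 36 (52.8%), against 33.6% of all genes, and lower on both for 3 (8.33%), against 32.7% of all genes. The remaining 14 (38.9%) had their RASSF9-/- arrays on opposite sides of WT, against 33.7% of all genes (4 genes with an array equal to WT included). Both differences share the single WT array, so an error in the WT value enters both. None of the 36 was at least 1.5-fold lower on both arrays, against 6.19% of all genes.

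On RASSF9-/- array 1 alone, 11 genes (30.6%) were at least 2-fold higher than WT, against 5.83% of all genes, and 0 were at least 2-fold lower, against 5.19%. On RASSF9-/- array 2 alone, 1 gene (Phgdh, 2.78%) was at least 2-fold higher, against 6.87% of all genes, and 1 (Trib3) at least 2-fold lower, against 8.91%. RASSF9-/- array 1 lay above array 2 for 33 of the 36 genes, against 54.8% of all genes, and at least 2-fold above it for 9 (25%), against 8.63%. The exceptions to this order were Dnajb11, Pdia3 and Sesn2. The median signal over all probe sets was 99 on array 1 and 81.7 on array 2, so small differences depend on the scaling. The count of genes with array 1 above array 2 was not repeated under another scaling. With 1 array on each side this difference between the RASSF9-/- arrays could not be tested.

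**Figure D2:**
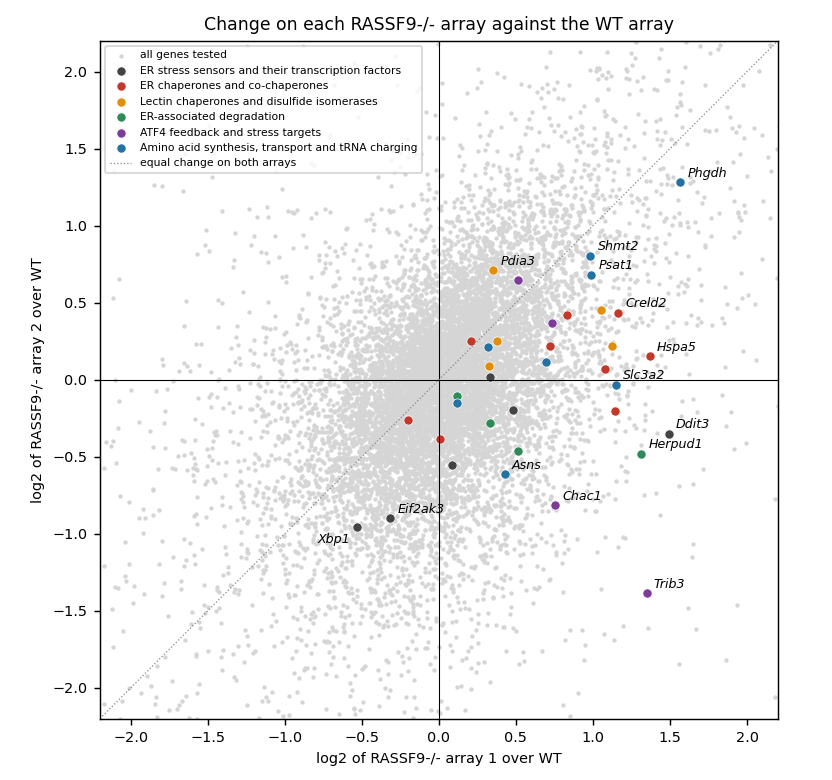
Log2 ratio of RASSF9-/- array 1 to WT (horizontal) and of RASSF9-/- array 2 to WT (vertical), with the 36 genes coloured by role over all genes tested in grey (359 genes outside ±2.2 are not drawn). Most coloured points lie right of 0 and below the dotted line of equal change, with Phgdh at 1.56 and 1.28 and Trib3 at 1.35 and -1.39.

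Among the sensors, Ern1, the kinase and nuclease that splices Xbp1, had a signal of 887 on RASSF9-/- array 1 and 554.5 on array 2, against 635 for WT. Eif2ak3, the kinase that phosphorylates the translation factor eIF2-alpha, had 1689 on array 1 and 1129 on array 2, against 2105 for WT. Atf6 had 474.5 and 305 on the RASSF9-/- arrays, against 447 for WT. Only Eif2ak3 was thus lower on both RASSF9-/- arrays, with a log2 fold change of -0.61 ± 0.41 (SE, adjusted p = 0.9996 from limma). The log2 fold change of Ern1, 0.14 ± 0.48 (SE), and that of Atf6, -0.23 ± 0.51 (SE), turned to -0.50 and 0.28 with the mean of their probe sets.

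Of the transcription factors, Xbp1 had 6215 and 4617 on RASSF9-/- arrays 1 and 2, against 8968 for WT, a log2 fold change of -0.74 ± 0.35 (SE, adjusted p = 0.951 from limma), and its 4 probe sets were all lower than WT on both arrays. Atf4 had 10336 and 8308 on the RASSF9-/- arrays, against 8219.6 for WT (log2 fold change 0.17 ± 0.33, SE), so that array 2 and WT were close. Ddit3 encodes CHOP, a factor that ATF4 induces and that promotes cell death under lasting stress. Its signal was 3636 on array 1 and 1013 on array 2, against 1293 for WT, so the RASSF9-/- arrays lay on either side of WT and differed 3.59-fold between them, with a log2 fold change of 0.57 ± 0.73 (SE). Its other probe set gave 409 on array 1 and 178 on array 2, against 178 for WT, with array 2 and WT at the same value.

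ER chaperones were higher mainly on RASSF9-/- array 1. Hspa5 encodes BiP, the ER chaperone that holds the sensors inactive in unstressed cells, and had signals of 33524 and 14430.1 on RASSF9-/- arrays 1 and 2, against 12993 for WT. Array 1 was thus 2.58-fold and array 2 1.11-fold WT, and the log2 fold change over both was 0.76 ± 0.52 (SE, adjusted p = 0.9996 from limma). Its other probe sets gave 10210 and 3599, against 3405 for WT, and 1310.2 and 893, against 834 for WT, so that array 2 was close to WT on all 3.

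The same pattern was seen for Manf, a secreted ER stress protein, with 8326.5 and 4134.5 on the RASSF9-/- arrays, against 3938 for WT. Sdf2l1, a component of an ER chaperone complex, had 749 and 295, against 339 for WT. Creld2, an ER protein induced by stress, had 1886 and 1139, against 843 for WT, and was higher on both arrays (2.24-fold and 1.35-fold). Hsp90b1 encodes GRP94, the ER form of HSP90, and was also higher on both, with 9101 and 6843 against 5105 for WT.

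Of the DNAJ proteins, which drive the ATP cycle of BiP, Dnajc3 had 2347 and 1656 on the RASSF9-/- arrays, against 1422 for WT. Other probe sets of Dnajc3 went the other way, for example 1328 and 993 against 1612 for WT, and with the mean of probe sets its log2 fold change of 0.47 became -0.13. Dnajb11 was close to level, with 1475 and 1523 against 1279.8 for WT. Dnajb9, a target of spliced XBP1, had 4538 and 3449.5, against 4516 for WT, and Hyou1, the exchange factor of BiP, had 1938 and 1858, against 2229 for WT. These 2 genes thus did not share the higher array 1 signal of Hspa5.

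By their brightest probe sets, all 5 lectin chaperones and disulfide isomerases were higher than WT on both RASSF9-/- arrays, against 33.6% of all genes tested. Pdia4, a disulfide isomerase, had 785 on array 1 and 419.8 on array 2, against 360.5 for WT, and Pdia6, another, had 4464 and 2951, against 2156 for WT. Both were more than 2-fold higher on array 1, and Pdia6 was 1.37-fold higher on array 2. Pdia3, the isomerase that works with the lectin chaperones, was the member of this group with the higher array 2 signal (3370 and 4321, against 2642 for WT). The differences were smaller for calreticulin (Calr), with 16400.5 and 13934 against 13121 for WT, and for calnexin (Canx), with 9879.6 and 9065 against 7605 for WT. The dimmest probe set of Canx was instead lower on both arrays, with 434 and 309 against 444 for WT.

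The 4 genes of ER-associated degradation, which moves misfolded proteins out of the ER for breakdown, all had RASSF9-/- arrays on opposite sides of WT. This holds for their brightest probe sets, and the share over all genes tested was 33.7%. Herpud1, a membrane protein of the degradation complex, had 2811 on RASSF9-/- array 1 and 810.1 on array 2, against 1130.3 for WT. Array 1 was 2.49-fold WT and array 2 0.717-fold WT, and its other probe set gave 1828 and 734, against 976 for WT. Edem1, a lectin that picks out misfolded glycoproteins, had 2998 and 1528, against 2102 for WT. Sel1l and the ubiquitin ligase Syvn1 form the core of the complex and differed less, with 1859.9 and 1218 for Sel1l, against 1478 for WT, and 1568 and 1347 for Syvn1, against 1448 for WT. The other probe set of Syvn1 was lower on both arrays, with 934 and 912 against 1211 for WT. So was the dimmest probe set of Sel1l, with 98.9 and 97.8 against 175 for WT. The log2 fold changes over both arrays, at 0.03 for Edem1, 0.03 for Sel1l and 0.01 for Syvn1, turned to -0.20, -0.14 and -0.19 with the mean of probe sets.

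Among the feedback and stress targets of ATF4, Trib3 and Chac1 differed in direction between the RASSF9-/- arrays. Trib3, a pseudokinase that restrains ATF4 and CHOP, had 1613 on array 1 and 242.5 on array 2, against 633 for WT. The RASSF9-/- arrays differed 6.65-fold, more than for any other of the 36 genes, and the log2 fold change over both was -0.02 ± 1.03 (SE), which was 0.07 with quantile normalization. The other probe set of Trib3 had 797 and 323, against 362 for WT. Chac1, which degrades glutathione, had 2483 and 836, against 1469.8 for WT, with a log2 fold change of -0.03 ± 0.65 (SE). Ppp1r15a encodes GADD34, which reverses the phosphorylation of eIF2-alpha, and was higher on both arrays, with 2751 and 2131 against 1652 for WT. Sesn2, a leucine sensor and stress protein, was higher on both as well, with 1075 and 1177 against 752 for WT.

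Among the amino acid genes, Phgdh, Psat1 and Shmt2 were the 3 at least 1.5-fold above WT on both RASSF9-/- arrays, and they are described one by one. Phgdh, the enzyme of the committed step of serine synthesis, had 3729 and 3069 on RASSF9-/- arrays 1 and 2, against 1261 for WT. This is 2.96-fold and 2.43-fold WT, with a log2 fold change of 1.42 ± 0.35 (SE, unadjusted p = 0.00622, adjusted p = 0.451 from limma). Its 4 probe sets all gave higher signals on both RASSF9-/- arrays, with log2 ratios to WT between 1.08 and 1.89 on array 1 and between 0.92 and 1.28 on array 2. All 4 have the suffix that Affymetrix gives to probe sets with probes shared with other transcripts, so related sequences may add to them.

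Psat1, the aminotransferase that follows Phgdh, had 2860.3 and 2309.7 on the RASSF9-/- arrays, against 1441 for WT, a log2 fold change of 0.83 ± 0.36 (SE, adjusted p = 0.9155 from limma). Shmt2, which turns serine into glycine in mitochondria, had 2220 and 1962, against 1122.5 for WT, with 0.89 ± 0.36 (SE, unadjusted p = 0.046, adjusted p = 0.891 from limma). Of its 4 probe sets, 3 were higher on both arrays. Among these, a dim probe set had 198.8 and 75.1, against 61.4 for WT, with array 2 and WT in the background. The dimmest of the 4 had 200.3 and 15.6, against 192 for WT, with array 2 in the background. The log2 fold change of Shmt2 was 0.25 with the mean of probe sets. The representative probe set of Shmt2 also has the suffix named for Phgdh, and the only one without it had 999.6 and 741.4, against 463.6 for WT. Psph, which completes serine synthesis after Psat1 and belongs to a further list, was split, with 1756 on array 1 and 779.8 on array 2, against 1056 for WT. Asns, the asparagine synthetase that is a standard ATF4 target, did not follow them, with 5915 on array 1 and 2869.8 on array 2, against 4396 for WT. As most mitosis and proliferation genes also had higher signals on both arrays, their part in the signals of Phgdh, Psat1 and Shmt2 was not tested.

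Slc7a5 and Slc3a2 encode the light and heavy chain of a transporter of large neutral amino acids. Slc3a2 had 8847 on RASSF9-/- array 1 and 3906 on array 2, against 3994 for WT, so only array 1 stood apart. Slc7a5 was nearly level, with 669.5 and 624 against 538 for WT. Of the tRNA synthetases, Gars (glycine) had 5817 and 3889.8, against 3588 for WT, and Aars (alanine) had 4693 and 3891, against 4325 for WT. The log2 fold change of Aars was -0.02 and became 0.10 with the mean of its probe sets.

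**Figure D3:**
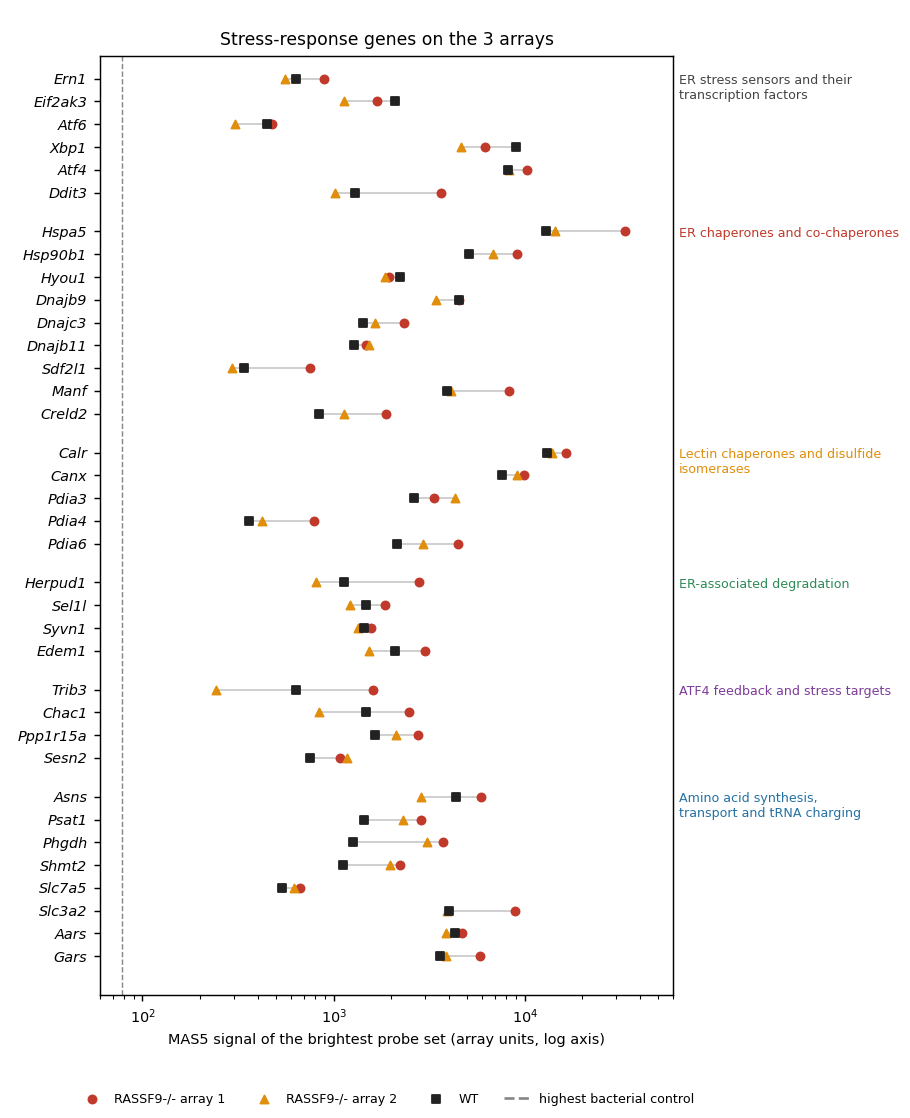
MAS5 signal (array units, log axis) of the brightest probe set of each of the 36 genes on RASSF9-/- array 1 (circles), RASSF9-/- array 2 (triangles) and WT (squares), grouped by role, with the brightest bacterial control (78.4) dashed. Array 1 of Hspa5, at 33524, lies apart from array 2 and WT, whereas both RASSF9-/- markers of Phgdh lie right of its WT marker.

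The medians of the role groups show how far RASSF9-/- array 2 followed array 1. The ER chaperones had a median log2 ratio to WT of 0.83 on array 1 and 0.15 on array 2 (9 genes), and the lectin chaperones and isomerases 0.38 on array 1 and 0.25 on array 2 (5 genes). The ER-associated degradation genes had 0.42 and -0.37 (4 genes), the ATF4 feedback and stress targets 0.75 and -0.22 (4 genes), and the sensors and transcription factors 0.21 and -0.45 (6 genes). The 8 amino acid genes had 0.84 on array 1 and 0.17 on array 2. These medians rest on few genes and were not tested against each other.

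**Figure D4:**
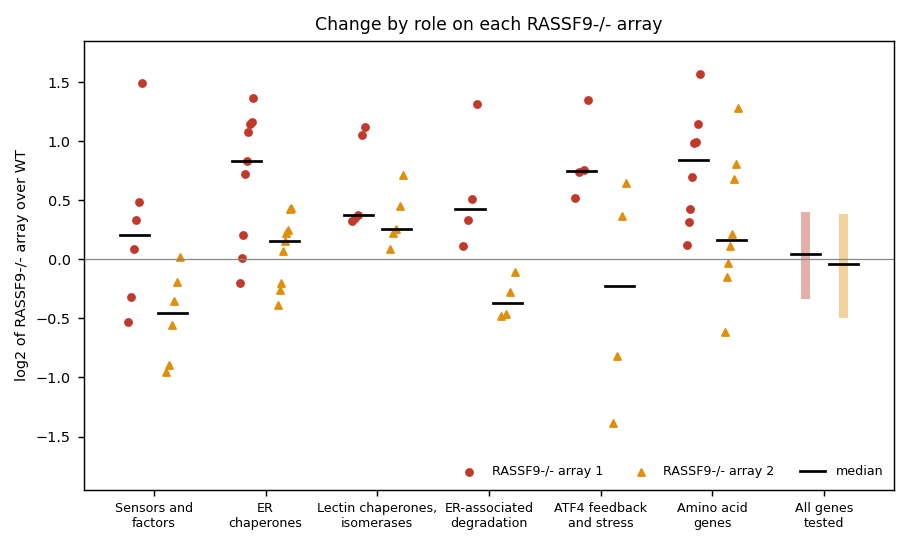
Log2 ratio to WT of each gene on RASSF9-/- array 1 (circles) and array 2 (triangles) by role, with medians as black lines, and for all 11089 genes tested the median and the bar between the 25th and 75th percentiles. In every role the array 1 median lies above 0, and the array 2 medians of the sensors, degradation genes and ATF4 feedback targets lie below 0.

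Grouped by promoter, the 10 genes with either ER stress element were all higher than WT on RASSF9-/- array 1, between 0.12 (Syvn1) and 1.37 (Hspa5) on the log2 scale with a median of 0.78, and 8 of them were higher on array 2, with a median of 0.24. Of the 22 genes with a window but neither element, 20 were higher on array 1 and 9 on array 2, with medians of 0.61 and -0.17, so a higher array 1 signal was common to both sets. The 6 genes with the ATF4 element core, as in the sequences of Chac1, Gars and Asns above, were also all higher on array 1, with a median of 0.73. On array 2, 1 of these 6 was higher than WT (Gars, 0.12) and the median was -0.55. Of the 26 genes with a window but no such core, 24 were higher on array 1 and 16 on array 2, with medians of 0.62 and 0.19. The 26 include other genes of the ATF4 and amino acid groups, so the core does not divide ATF4 targets from other genes. On array 2 these had 1.28 (Phgdh), 0.81 (Shmt2), 0.68 (Psat1), 0.65 (Sesn2), 0.37 (Ppp1r15a) and -0.03 (Slc3a2). These sets were not tested against each other. Herpud1 counts under both elements, and Dnajc3, Syvn1, Aars and Trib3 changed sign over both arrays with the mean of probe sets. Trib3 had the lowest array 2 value of the genes with the ATF4 element core, -1.39, and its other probe set gave -0.16.

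The 36 genes have 84 probe sets of their own, 75 of them past the filter. Of the 22 genes with more than 1 probe set past the filter, 15 had all of these in the same position to WT (higher on both RASSF9-/- arrays, lower on both, or split), among them Hspa5, Hsp90b1, Calr, Xbp1, Herpud1, Trib3, Asns, Phgdh and Psat1. The 15 count Ddit3 as split, although array 2 and WT were equal on its dimmer probe set. In the other 7, Atf6, Canx, Dnajc3, Ern1, Sel1l, Shmt2 and Syvn1, the probe sets disagreed. RASSF9-/- array 1 lay above array 2 on every such probe set in 18 of the 22 genes.

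**Figure D5:**
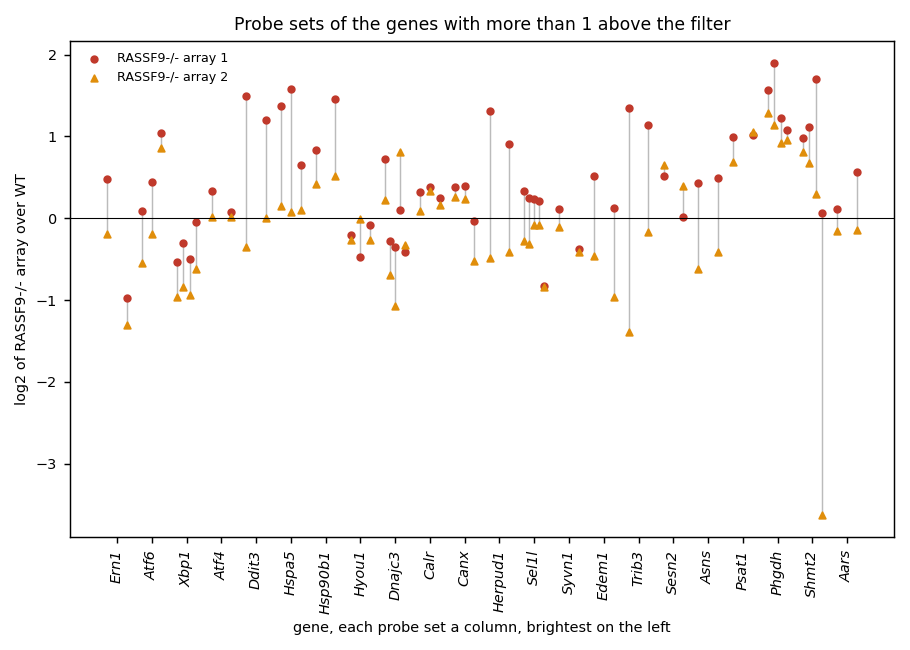
Log2 ratio to WT of each probe set past the filter on RASSF9-/- array 1 (circles) and array 2 (triangles), for the 22 genes with more than 1, brightest at the left of each gene. The 4 probe sets of Xbp1 lie under 0 and the 4 of Phgdh above 0 on both arrays. The dimmest probe set of Shmt2 reaches -3.62 on array 2, where its signal lies in the background.

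Other genes of the same pathways were described from fixed lists, and no gene of these lists passed the test across all genes in either direction. Over all genes tested, 0.0812% were called higher and 0% lower. The counts of these lists stand beside 33.6% of all genes tested that were higher on both RASSF9-/- arrays and 32.7% lower on both. Of 19 other ER folding enzymes tested, 13 were higher on both RASSF9-/- arrays and 0 lower, with a median log2 fold change of 0.22. The 3 with the largest change shared by both arrays were Ero1b, an oxidase of disulfide formation, with 462 and 218 against 142.5 for WT, Pdia5 with 447 and 202 against 156 for WT, and Txndc5 with 2405.5 and 1539.5 against 1239 for WT. As with Hspa5 and Pdia4, array 1 had the higher signal in each. Of 15 other degradation genes tested, 4 were higher on both and 5 lower on both, with a median of -0.11, and Ube2g2, a ubiquitin-conjugating enzyme, had 1663 and 1459 against 2265 for WT. Ube2j1, another, had 1874 and 1745 against 1369.8 for WT, and Derl2, of the degradation channel, had 3299.6 and 3475 against 2716.5 for WT. Of 15 translocon and signal peptidase genes, 9 were higher on both and 3 lower, with a median of 0.15, led by Ssr1, a subunit associated with the translocon (4101.5 and 4388 against 2794 for WT), Sec61a1, the channel itself (6129 and 6232 against 4563 for WT), and Srprb, of the signal recognition particle receptor (1645 and 1543 against 1214 for WT).

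Of 19 other sensors, kinases and factors of the response, 8 were higher on both RASSF9-/- arrays and 8 lower, with a median of 0.03. The ER-membrane factor Creb3 had 3216 and 3226 against 1999 for WT, and the amino acid sensing kinase Eif2ak4 had 193 and 191 against 134 for WT. Creb3l2, a relative of Creb3, was lower on both, with 546 and 395 against 761 for WT. Of 17 other tRNA synthetases, 12 were higher on both and 0 lower, against 33.6% and 32.7% of all genes. Their median was 0.36 over both arrays, 0.54 on array 1 and 0.15 on array 2. Farsb had 3375 and 3984 against 2081 for WT, and Kars had 3057 and 3464 against 1974 for WT, while Iars had 3766 and 3566 against 2483 for WT. These enzymes charge tRNA with phenylalanine, lysine and isoleucine. Of 17 other amino acid and one-carbon genes of ATF4, 3 were higher on both and 2 lower on both. The other 12 were split, against 33.7% of all genes. Their median was 0.47 on array 1 and -0.44 on array 2 over the 17 genes. Array 1 was at least 2-fold above array 2 for 10 of the 17, against 8.63% of all genes. The leading genes shared by both arrays were Shmt1, the cytosolic partner of Shmt2, with 400.4 and 441 against 171 for WT, and the glutamine transporter Slc1a5 with 208 and 231 against 102 for WT. Cbs, which uses serine to make cystathionine, was lower on both, with 87.9 and 98.1 against 122 for WT.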

How the data were processed

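RNA of primary keratinocytes was measured on Affymetrix Mouse Genome 430 2.0 arrays, with 2 RASSF9-/- arrays and 1 WT array. The authors deposited MAS5 signals, an intensity on a linear scale for each of 45101 probe sets. Each array had a trimmed mean of 500 (2% left out at either end, as computed from the files), so no further scaling was applied. The median signals still differed, at 99 and 81.7 for RASSF9-/- arrays 1 and 2 and 90.8 for WT. Precision is limited by the small number of arrays. No step of the GeneSpring software that the methods mention was repeated.

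Log2 values were taken without a pseudocount. The annotation gives 34945 probe sets 1 symbol, 932 several and 9160 none, and 64 are controls. Probe sets with 1 symbol were kept at or above the 50th percentile of mean log2 signal (a signal of 82.75), and the brightest represented each gene. RASSF9-/- was compared with WT by limma 3.58.1 in R 4.3.3 (lmFit and eBayes with an intensity trend, two-sided, Benjamini-Hochberg over 11089 genes), with 5.31 prior degrees of freedom. The code of the fit was tested on simulated data with known changes, which does not measure the spread within WT in these data. The highest of 27 bacterial control probe sets, 78.4, was taken as background. All 36 genes matched RefSeq (GRCm38.p6) by symbol. Promoter windows came from RefSeq and were searched in Python 3.11.15.

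The 36 genes, the lists and the alternatives were chosen with earlier results of these data known. Every one of the 36 genes was described, with full statistics for those at least 1.5-fold from WT on both RASSF9-/- arrays, those split by as much or differing 4-fold between the arrays, and the sensors and main regulators. Up to 3 genes of each further list were named by the smaller of the changes. The alternatives were no filter on dim probe sets or one at the 75th percentile, division by the median, quantile normalization, a floor at the bacterial controls, a pseudocount of 32, the mean of probe sets, limma without the trend, the methods' t-test, and leaving out each RASSF9-/- array.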

Additional observations from a re-analysis of the deposited data

How the results depend on the processing

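None of the 36 genes passed the test under any of the 9 alternatives with a test, and 28 changed sign under none of them. Atf6 and Sdf2l1 fell under the filter at the 75th percentile and were not tested there. Where the 36 genes were tested, their fold changes stay the same by construction with either filter setting, the floor, limma without the trend and the t-test. Only division by the median, quantile normalization, the pseudocount and the mean of probe sets could turn a direction. Over all genes the 9 calls became 0 with quantile normalization, with a floor at the bacterial controls and without the intensity trend, 5 with a filter at the 75th percentile and with a pseudocount of 32, and 4 with the methods' t-test, which had 258 genes higher and 235 lower at its unadjusted threshold and 0 of the 36 among them. The number of the 36 genes lower on both RASSF9-/- arrays was 6 in place of 3 after division by the median and with the mean of probe sets. With 1 RASSF9-/- array left out, values have no test, 19 to 33 genes were higher than WT and 3 to 17 lower, and the median ranged from 0.04 to 0.61. With the mean of probe sets the sign turned for Aars (0.10), Atf6 (0.28), Dnajc3 (-0.13), Edem1 (-0.20), Ern1 (-0.50), Sel1l (-0.14), Syvn1 (-0.19) and Trib3 (0.23), and for Trib3 also with quantile normalization (0.0707) and a pseudocount of 32 (0.0143). Fewer genes were tested under the stricter filter, and for the other alternatives the cause was not tested. No paired analysis was possible because WT has 1 array and no replicate number in the labels. The single WT array and the 2 RASSF9-/- arrays leave the spread within WT unmeasured.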

Other observations

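Chaperones outside the ER were described in the same way, beside 33.6% of all genes tested that were higher on both RASSF9-/- arrays and 32.7% lower on both. Of 9 mitochondrial chaperones and proteases tested, 7 were higher than WT on both RASSF9-/- arrays and 0 lower, with a median log2 ratio to WT of 0.47 on array 1 and 0.60 on array 2. Hspd1, the mitochondrial chaperonin HSP60, had 11381 and 12909 on RASSF9-/- arrays 1 and 2, against 6084 for WT. Its co-chaperonin Hspe1 had 9465 and 11394, against 5190.3 for WT, and the mitochondrial HSP70 Hspa9 had 9735.5 and 9573, against 5840.4 for WT. Both RASSF9-/- arrays thus lay above WT for these 3 genes, and none passed the test across all genes (limma). Of 15 cytosolic heat shock genes, 6 were higher on both arrays and 6 lower, with a median log2 fold change of 0.03. The small heat shock protein Hspb8 had 1687 and 1848, against 4109.9 for WT, and the inducible HSP70 Hspa1a had 1279 and 2245, against 3806.5 for WT. Hspa4, a cytosolic exchange factor of the HSP70 family, was higher on both, with 8398 and 7466 against 5065.5 for WT. Hspa1a has a near-identical neighbour, Hspa1b, chosen for that reason, with 13147 and 20692 against 21122 for WT, so the 2 signals may share transcripts.

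Some stress genes of the further lists were close to WT on RASSF9-/- array 1 and well under it on array 2. Nupr1, a stress-induced chromatin protein, had 10789 and 2279, against 11177 for WT, and Ddit4, an inhibitor of mTORC1 that stress induces, had 5019 and 1745, against 5655 for WT. Atf3, a factor downstream of ATF4, was instead high on array 1 alone, with 1146 and 458 against 429.7 for WT. These genes were named after their values were seen, and the difference between the RASSF9-/- arrays was not tested.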
